A study of Mus musculus with 22 samples.

Results

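Contact maps of mitotic chromosomes were compared with and without CTCF at every boundary and every loop that the study listed in G1E-ER4 cells, a mouse erythroblast line derived from GATA1-null cells. Of the 22 Hi-C samples in the series, 4 were held in prometaphase, 2 without auxin and 2 with auxin, and members were chosen as the samples collected at 0 min after release from the arrest. In all 4 samples both CTCF alleles carried a C-terminal auxin-inducible degron fused to mCherry, and the cells expressed the auxin receptor OsTiR together with GFP from a retrovirus. Both groups were arrested with 200 ng/ml nocodazole for 7 to 8.5 h. The +auxin cells also received auxin during the last part of the arrest, and the -auxin cells did not. Cells were sorted for high pMPM2, a mitotic phosphoepitope, and for duplicated DNA content, and additionally for low mCherry in the +auxin group and high mCherry in the -auxin group. All samples came from 1 engineered cell line, so they describe that line.

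CTCF binds DNA through zinc fingers and halts cohesin, the ring complex that extrudes chromatin loops. In interphase, loops form between CTCF sites that face each other, and boundaries between topologically associating domains (TADs) often lie at such sites. Condensins compact chromosomes in mitosis, while cohesin and CTCF largely leave the chromosome arms, and most loops and boundaries are lost until they reform in telophase and G1. CTCF protein was not measured in the tables used here, and contact maps hold no expression values with which to check the cell type.

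To show the DNA that these comparisons are about, matches to the CTCF core consensus are printed. The sites include a strong mitotic boundary and a loop with high strength in both maps. The others are 2 boundaries and 2 loops among those that differed most between the maps. Matches were sought in 30 kb around each site, and those at Ruvbl1 and Podxl2 lie outside the 10 kb anchor bin itself. The matched letters are in capitals, the flanks in lower case, all 5′ to 3′ on the strand named, from mouse build mm9. The match is a description of letters, and occupancy was not measured at these positions here.
Boundary at the D2hgdh start, chr1:95729486-95729515, plus strand: acagaggagCCACCAGGGGGCacttttctc
Boundary lower with auxin, chr8:129021557-129021586, plus strand: agccagtgaCCACCAGATGGCactctgtcc
Boundary higher with auxin, Pag1, chr3:9709094-9709123, plus strand: actgcttgcCCAGTAGGTGGCgatgcaatg
Loop lower with auxin, beside the Ruvbl1 anchor bin, chr6:88437057-88437086, minus strand: gcagagctcCCAGCAGGGGGCaccatgtgt
Loop lower with auxin, beside the Podxl2 anchor bin, chr6:88799403-88799432, minus strand: cttcgatggCCAGCAGGGGGCactgccgtc
Loop higher with auxin, Asb7 anchor, chr7:73806549-73806578, minus strand: cagactcttCCAGTAGGTGGCagcagagtg
Loop strong in both maps, Ifna6 anchor, chr4:88476604-88476633, minus strand: caggcctggCCAGTAGGTGGCtctcttcgt

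The consensus, 12 letters long and searched on both strands, was present in 23.9% of the 30 kb windows centred on boundaries and in 13% of all 30 kb windows of the genome. Among windows at loop anchors it was present in 46.5% for structural loops, 43.6% for dual-function loops, 22.7% for other loops and 19.4% for loops between regulatory elements. A convergent pair of matches, 1 at each anchor and facing each other, was present at 13.9% of structural and 1.49% of regulatory-element loops.

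The boundary list held 6376 boundaries of 10 kb, in 5 clusters that the study drew from their behaviour after mitosis. The loop list held 16370 loops spanning 70 to 2000 kb, 12817 with a summit bin of 10 kb and 3553 with a summit bin of 25 kb. Loops were of 4 categories. Structural loops had CTCF and cohesin at both anchors, dual-function loops had these and regulatory elements, CRE loops linked cis-regulatory elements (promoters or enhancers) without CTCF and cohesin at both anchors, and the remainder were called others. Boundary strength is ΔIS, the rise of the insulation score beside a boundary over its minimum, which cannot be negative. Loop strength is the observed contact frequency over that expected locally, so a strength of 1 is no enrichment.

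The tables used here give 1 value per site and treatment, from a map that the authors merged from 2 replicate samples, so no value below has a replicate error and no difference was tested. Maps of single replicates were not analysed here. The SD given beside a median is that of the medians of 20 single chromosomes (n = 20), which describes evenness over the genome. Per the study's processing statistics, the +auxin prometaphase map held more valid read pairs than the -auxin one, and both held fewer than any later map. The depth behind a single boundary or loop is unknown. The lists were also drawn from interphase features: domains had to be stronger after mitosis than in either prometaphase map, and pixels with the highest -auxin prometaphase strength were removed from part of the loop list, so strong mitotic features could be under-represented. Chromosome 3 carries a translocation in these cells. For loops, 71.4% shared an anchor bin with another loop, so loops are not independent of each other.

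Boundaries were weak in prometaphase with or without CTCF. Median strength over all boundaries was 0.0937 in the -auxin map and 0.0874 in the +auxin map, against 0.50 in the -auxin map of mid-G1, 120 min after release. The median log2 ratio of +auxin over -auxin was -0.088 (SD 0.06) in prometaphase, with the middle 50% of boundaries between -0.72 and 0.51, and it was -0.48 in mid-G1. The prometaphase median was below 0 on all 20 chromosomes. Of the 6375 boundaries with a ratio, 3482 (54.6%) were weaker with auxin, 1130 (17.7%) by a log2 ratio of -1 or less, and 829 (13%) had a ratio of 1 or more. Single boundaries therefore lay on both sides in large numbers, and the typical boundary was slightly lower with auxin.

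By cluster, the order of the prometaphase ratios ran as the order in mid-G1 for clusters 1 to 4, over a much narrower range, and each ratio was within its spread over chromosomes. Cluster 1, the boundaries most reduced without CTCF after mitosis, had a median strength of 0.0766 without and 0.0668 with auxin (1300 boundaries), a log2 ratio of -0.18 (SD 0.20) that was below 0 on 14 of 20 chromosomes. Cluster 2 had 0.106 and 0.0948 (2036 boundaries, log2 ratio -0.12, SD 0.12, below 0 on 19), and cluster 3 had 0.104 and 0.101 (1731 boundaries, log2 ratio -0.057, SD 0.10, below 0 on 15). In cluster 4, whose boundaries were stronger without CTCF after mitosis, the value was 0.0694 without and 0.0786 with auxin, a log2 ratio of 0.083 (590 boundaries, SD 0.23). Cluster 5, described in the study's methods as mostly spurious, had 0.0927 and 0.0864 (719 boundaries, log2 ratio -0.11, SD 0.26, below 0 on 12). Its ratio was thus about that of cluster 2 and below that of cluster 3, and 22.8% of its boundaries were at -1 or less, against 22.6% in cluster 1. The medians of clusters 1 to 4 in mid-G1 were -1.53, -0.70, -0.04 and 0.69. The clusters were drawn from z-scores whose scaling included the prometaphase maps, so their order in prometaphase is not fully independent of the clustering.

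**Figure D1:**
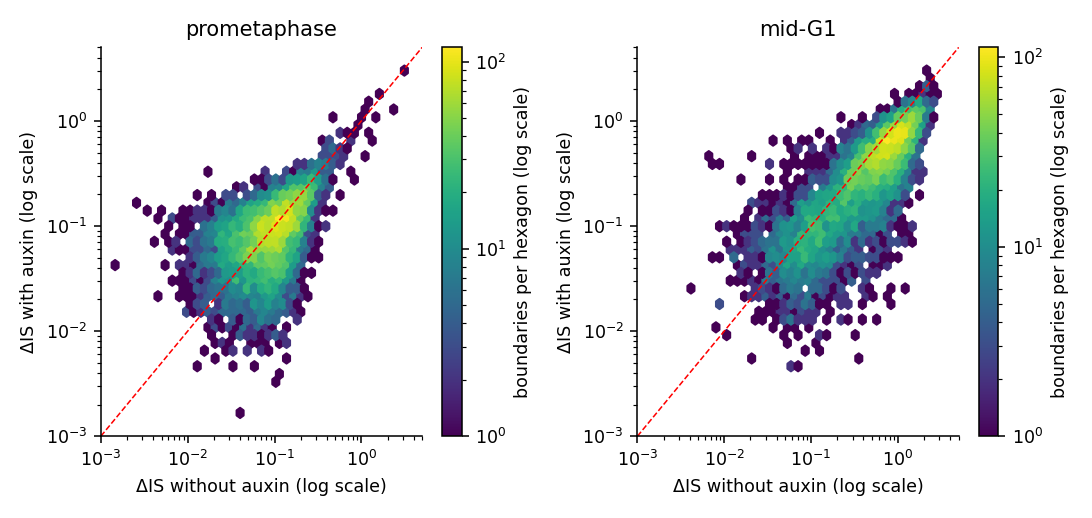
Boundary strength (ΔIS, log axes) without against with auxin, in prometaphase and in mid-G1, coloured by the number of boundaries per hexagon. The dashed line marks equality, and the prometaphase cloud is broad around it.

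The strongest interphase boundaries had the lowest median ratio in prometaphase. When boundaries were divided by their -auxin mid-G1 strength, the weakest quintile had 0.0673 without and 0.0616 with auxin in prometaphase and the strongest quintile had 0.135 and 0.113. The median log2 ratio of the strongest quintile was -0.23 (SD 0.11), below 0 on all 20 chromosomes, with 63.0% weaker. Of its 1275 boundaries 200 (15.7%) were at -1 or less, against 17.7% of all boundaries and 22.3% of the weakest quintile, and 75 (5.88%) were at 1 or more, against 13% and 19.2%. Large ratios were thus less frequent in both directions there, most of all those above 0. For the other quintiles, from weakest to strongest, the ratios were -0.04, -0.02, -0.01 and -0.12. The mid-G1 and prometaphase maps share no library. When the same boundaries were ranked instead by their mid-G1 log2 ratio, the prometaphase medians were -0.17 (SD 0.16) and -0.18 (SD 0.12) in the 2 quintiles most reduced in mid-G1, -0.10 and -0.05 in the next 2, and 0.0037 (SD 0.14) in the least reduced.

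Boundaries with a CTCF core match were slightly stronger without auxin and had the lower ratio. Their medians were 0.104 and 0.0937 (1523 boundaries, log2 ratio -0.15, SD 0.09), against 0.0909 and 0.0853 at boundaries with no match (4853 boundaries, -0.07, SD 0.08). Boundaries with the start of a protein-coding gene were the stronger ones in both maps, 0.113 and 0.102 (2026 boundaries), against 0.0862 and 0.0809 elsewhere, with similar ratios of -0.10 and -0.08. On the X chromosome the 346 boundaries had 0.0704 and 0.0735, and 50.6% were weaker with auxin.

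Relative to its own -auxin mid-G1 strength, the median boundary retained 20.0% (SD 1.57) in the -auxin prometaphase map, with the middle 50% between 11.2% and 43.5%, and 19.2% (SD 1.84) in the +auxin map. Clusters 1, 2 and 3 retained 18.7%, 12.8% and 19.5% without auxin and 17.1%, 11.3% and 18.6% with auxin. Cluster 4, with a median strength of 0.102 in -auxin mid-G1, retained 64.5% and 70.0%. Cluster 5, mostly spurious per the study, stood at 124% and 116%. Its prometaphase medians of 0.0927 and 0.0864 were near those of all boundaries. Prometaphase strength relative to mid-G1 was thus of like size in both maps. Since ΔIS cannot be negative, some of it can remain without a boundary, and how much of these shares is residual insulation was not tested.

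A small set of boundaries was strong in both maps. In all, 77 had a strength of 0.3 or more in each, with medians of 0.459 without and 0.442 with auxin, and 39 of the 77 were weaker with auxin. Their mid-G1 medians were 0.998 and 0.828, and 66 of the 77 were stronger in -auxin mid-G1 than in -auxin prometaphase. By cluster they numbered 7, 17, 32, 11 and 10. A gene start lay at 48 of them (62.3%), against 31.8% of all boundaries, while a CTCF core match lay at 27.3%, against 23.9% of all. Bases not placed in the mm9 assembly (runs of N, where reads cannot be mapped) lay in the 260 kb window around 11 of the 77 (14.3%), against 1.61% of all boundaries, and their part in these values was not tested. Chromosomes 7 and 13 held 9 each, of 352 and 307 boundaries, and chromosome 16, with 237, held none.

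Among clusters 1 to 4, the boundary with the highest mean over both maps lay at chr1:95720001-95730000, at the start of D2hgdh. This gene encodes a mitochondrial dehydrogenase. The strength of the boundary was 2.25 without and 1.34 with auxin in prometaphase, and 2.50 and 2.63 in mid-G1. Next came chr7:24620001-24630000 at the start of the vomeronasal receptor gene Vmn1r176, with 1.75 and 1.72 in prometaphase and 1.79 and 1.99 in mid-G1. This cluster 4 boundary was about as strong in mitotic as in G1 chromosomes in both treatments. A boundary at chr7:67940001-67950000, with no protein-coding gene, had 1.16 and 1.55. In an exon of Gm46, chr12:104900001-104910000 had 1.12 and 1.34, and chr7:51480001-51490000 at the starts of Klk1, a kallikrein protease gene, and Gm10109 had 1.33 and 0.714. None of these 5 had unplaced bases nearby, and 3 of the 5 were lower with auxin in prometaphase.

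Among boundaries with a mean of at least 0.1, the lowest ratio was at chr6:5570001-5580000 in cluster 1, with 0.223 without and 0.0211 with auxin, a log2 ratio of -3.40. Its mid-G1 values were 0.607 and 0.201. The cluster 1 boundary in an exon of Mctp1, chr13:76850001-76860000, had 0.190 and 0.0223 in prometaphase and 0.847 and 0.183 in mid-G1. At chr8:129020001-129030000, whose CTCF core match is printed above, the values were 0.209 and 0.0273 (log2 -2.93) in prometaphase and 0.532 and 0.0201 (log2 -4.73) in mid-G1. The other 2 of the 5 lowest ratios, on chromosomes 5 and 10, belonged to cluster 5.

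The highest ratios came from boundaries that were near 0 in the -auxin map. At chr13:86220001-86230000, in cluster 4, strength was 0.0186 without and 0.339 with auxin (log2 4.19). The boundary in an exon of Pag1, a membrane adaptor gene, at chr3:9700001-9710000 had 0.0131 and 0.190 in prometaphase but 1.26 and 0.465 in mid-G1, so its direction in mid-G1 was the opposite one. Another, in an exon of the condensin II subunit gene Ncapg2 at chr12:117700001-117710000, had 0.0180 and 0.210 in prometaphase and 1.38 and 1.07 in mid-G1. These extremes set 1 merged map against 1 merged map, and the spread of replicates at them was not analysed here.

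Loops were close to the local expectation in prometaphase, and the small differences with auxin depended on the loop category. The median over all loops was 1.08 without and 1.04 with auxin, a log2 ratio of -0.04 (SD 0.01), below 0 on all 20 chromosomes. Of 16368 loops with a ratio, 8907 (54.4%) were weaker with auxin, 2111 (12.9%) by -0.5 or less, and 1482 (9.05%) had a ratio of 0.5 or more. Structural loops stood below this background and CRE loops above it.

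For the 4837 structural loops the median was 1.06 without and 1.00 with auxin, a log2 ratio of -0.080, so the typical structural loop had little enrichment over its surroundings without auxin and none with it. They were weaker with auxin in 58.1% of cases, and their median ratio was below 0 on all 20 chromosomes, from -0.17 to -0.00 (SD 0.04). A ratio of -0.5 or less was seen for 804 structural loops (16.6%), and of 0.5 or more for 442 (9.14%). The 3370 dual-function loops had medians of 1.11 and 1.06 (log2 ratio -0.05, SD 0.08), with 413 at -0.5 or less and 252 at 0.5 or more. The 4642 CRE loops had a ratio of -0.01 (SD 0.02), and 464 (10.0%) were at -0.5 or less while 480 (10.3%) were at 0.5 or more. Other loops (3521) had 1.07 and 1.03 (-0.03, SD 0.03).

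The order of categories held over most of the genome. Structural loops had a lower median ratio than CRE loops on 19 of 20 chromosomes, dual-function loops a lower one than CRE loops on 18, and structural loops a lower one than dual-function loops on 13. The lowest chromosome median of dual-function loops, -0.36, was on the X chromosome and rested on 17 loops, and the other chromosomes lay between -0.12 and 0.01. After subtraction of the all-loop median the structural median was -0.040, the CRE median 0.033 and that of other loops 0.015, so whether CRE loops and other loops lay above or below 0 depended on the centring.

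**Figure D2:**
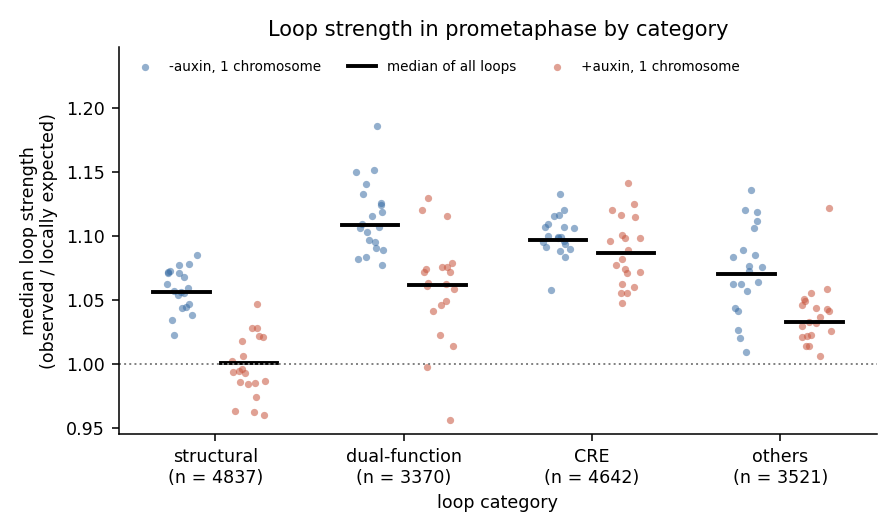
Median loop strength (observed over expected) by category in each prometaphase map, with single chromosomes as points and a bar for all loops of the category. The dotted line marks a strength of 1. Structural medians are 1.06 without and 1.00 with auxin, and CRE medians are 1.10 and 1.09.

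The median ratio of structural loops was below 0 in each of 4 size ranges. Those of up to 200 kb had 1.02 without and 0.970 with auxin (2029 loops, log2 ratio -0.07, SD 0.06), and those of 200 to 500 kb had 1.09 and 1.03 (1804 loops, -0.10, SD 0.07). Loops of 500 to 1000 kb had 1.06 and 1.01 (759 loops, -0.07, SD 0.11). Above 1000 kb the ratio was -0.02 (245 loops, SD 0.12), below 0 on 11 chromosomes. The ratios of both ranges above 500 kb were within the spread of chromosomes, and that above 1000 kb was 0.016 over 10 kb summits alone. With the loops divided into size quartiles instead, the longest quartile had -0.064 and the shortest -0.068. CRE loops of the same sizes had ratios between -0.02 and -0.00, while their -auxin strength was 1.02 in the shortest bin and 1.16, 1.20 and 1.18 in the longer ones.

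Structural loops that were reduced most with auxin in mid-G1 also had the lowest median ratio in prometaphase, with a wider spread in both directions. In the quintile with the lowest mid-G1 ratio, prometaphase strength was 1.10 without and 0.990 with auxin, a median log2 ratio of -0.14 (SD 0.12), with 237 of its 968 loops (24.5%) at -0.5 or less and 122 (12.6%) at 0.5 or more, against 12.9% and 9.05% of all loops. In the quintile with the highest mid-G1 ratio the values were 1.04 and 1.015, a ratio of -0.05 (SD 0.05), with 91 (9.40%) and 61 (6.30%) of 968. The SD over single loops was 0.64 in the former and 0.37 in the latter quintile. The 3 quintiles between had -0.09, -0.08 and -0.07. Across single structural loops this relation was weak: Spearman's rho between the prometaphase and mid-G1 ratios was 0.075 over structural loops, 0.113 over all loops and 0.066 over boundaries, with no library in common. Ranked by -auxin mid-G1 strength instead, the strongest structural quintile had 1.15 and 1.03 (-0.16, SD 0.12) and the weakest 0.955 and 0.909 (-0.05).

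Dual-function loops covered a wider range, with -0.12, -0.10, -0.04 and -0.07 in the first 4 quintiles and 0.04 (SD 0.13) in the quintile least reduced in mid-G1, where the median was below 0 on 6 chromosomes. The quintile medians of CRE loops lay between -0.03 and 0.02.

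**Figure D3:**
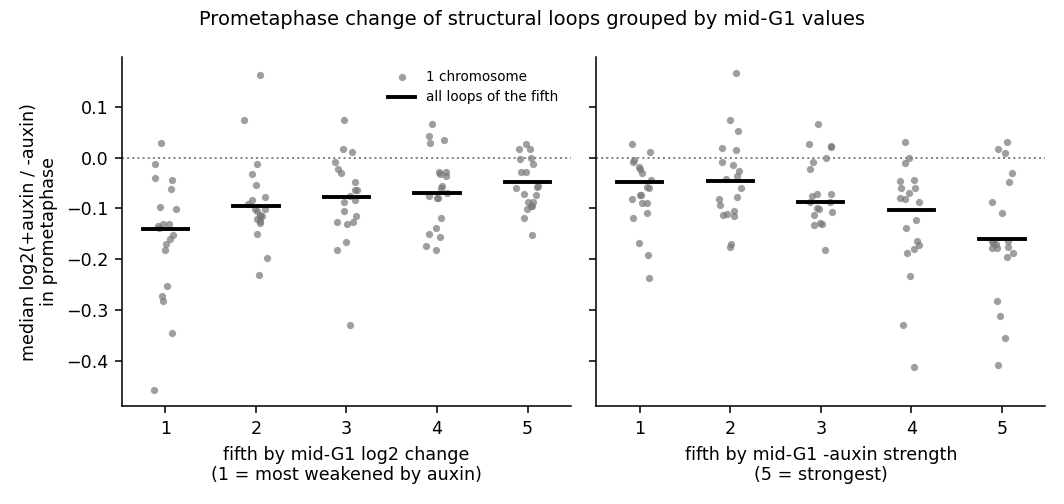
Prometaphase log2 ratio (+auxin over -auxin) of structural loops, with single chromosomes as points. Loops are grouped by quintile of their mid-G1 ratio (left) and of their -auxin mid-G1 strength (right). The structural median is -0.14 in the quintile with the lowest mid-G1 ratio and -0.05 in that with the highest.

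Loops first detected in ana/telophase were the stronger ones in prometaphase in every category, and in all but the others category they also had the lower ratio. The 717 structural loops first detected in ana/telophase without auxin had 1.126 and 1.020 in prometaphase, a log2 ratio of -0.16 (SD 0.12), and 65.1% were weaker with auxin. For those first detected in early G1 (1791 loops) and mid-G1 (2257 loops) the ratios were -0.08 and -0.07. The 945 dual-function loops first detected in ana/telophase had 1.16 and 1.07 (-0.085, SD 0.06), and those first detected later had ratios of -0.060 and -0.050. CRE loops first detected in ana/telophase had 1.14 and 1.11 (938 loops, -0.028, SD 0.06), and those first detected in early G1 and mid-G1 had -0.012 and -0.013. Other loops first detected in ana/telophase had 1.31 and 1.23 (300 loops), with a ratio of -0.0090 against -0.038 in early G1 and -0.044 in mid-G1. Structural loops called only in +auxin maps, 72 in all, had 1.02 and 1.03.

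By contrast, the ratio of structural loops did not vary with the letters under the anchors. It was -0.08 for the 670 with a convergent pair of CTCF core matches, the 389 with matches at both anchors in another arrangement, the 2376 with a match at 1 anchor and the 1402 with none. All structural loops had CTCF and cohesin at both anchors by definition, with or without a match. These classes therefore do not separate bound from unbound anchors. Gene starts made little difference to structural loops either, with -0.07 where both anchors held a start, -0.09 where 1 did and -0.08 where neither did. CRE loops with a gene start at both anchors were the stronger ones in prometaphase, 1.12 in both maps (2524 loops), against 1.04 in both where neither anchor held one (538 loops).

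Loops were counted as strong in prometaphase at a strength of 1.5 or more. In the -auxin map 1534 loops (9.37%) reached it, in the +auxin map 1291 (7.89%), and in both 541 (3.3%). Structural loops numbered 327 without auxin, or 6.76% (95% Wilson interval 6.09 to 7.50), and 190 with auxin, or 3.93% (3.42 to 4.51). Wilson intervals here cover counting error only and treat loops as independent, which loops with shared anchors are not. Dual-function loops numbered 350, or 10.4% (9.40 to 11.5), and 249, or 7.39% (6.55 to 8.32). CRE loops did not show this drop, with 478, or 10.3% (9.46 to 11.2), and 488, or 10.5% (9.66 to 11.4), and other loops had 10.8% and 10.3%. At a strength of 2 or more the direction turned for all loops (1.91% without and 2.1% with auxin), dual-function loops (1.22% and 1.28%) and other loops (4.46% and 5.37%), while the structural share was lower with auxin there too (0.868% and 0.558%).

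The loops past 1.5 were largely different ones in the 2 maps, with 35.3% of the -auxin and 41.9% of the +auxin list shared over all loops. Among structural loops 44 reached 1.5 in both, which was 13.5% of the -auxin list and 23.2% of the +auxin list. Among dual-function loops 87 did (24.9% and 34.9%), among CRE loops 178 (37.2% and 36.5%), and among others 232 (61.2% and 63.7%).

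**Figure D4:**
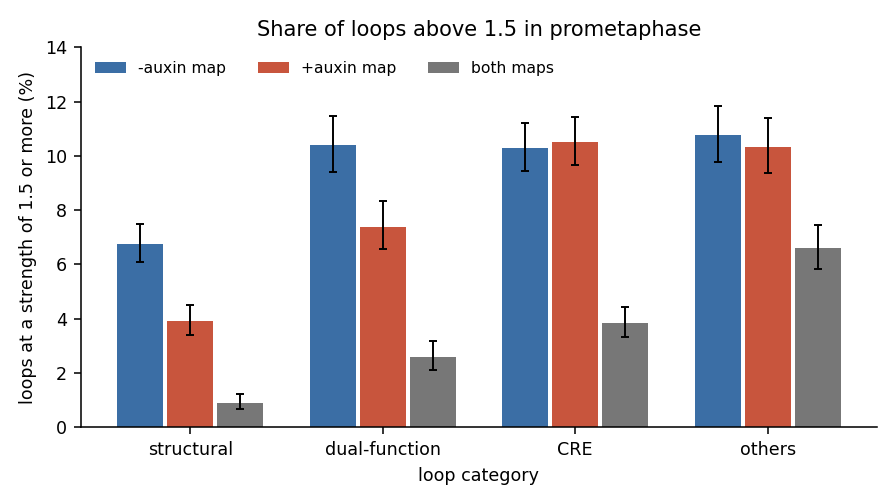
Share of loops (percent) at a strength of 1.5 or more in each prometaphase map and in both, by category, with 95% Wilson intervals. Structural loops go from 6.76% without to 3.93% with auxin, and CRE loops are at 10.3% and 10.5%.

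The 541 loops strong in both maps had medians of 1.92 without and 2.01 with auxin in prometaphase and of 2.80 and 2.52 in mid-G1. They were longer than the list as a whole, with a median of 310 kb against 220 kb, and 30.7% of them spanned more than 500 kb against 19.2% of all. The 178 CRE loops among them had a median of 430 kb, against 210 kb over all CRE loops. A convergent pair of CTCF core matches was present at 1.85% of them, against 6.92% of all loops, and gene starts lay at both anchors of 41.0% against 33.0%. Both the length and the gene starts turned at a strength of 2 or more in both maps, where 201 loops had a median of 190 kb and 25.9% had gene starts at both anchors. Among the dual-function and CRE loops strong in both maps, 73.6% and 65.7% had gene starts at both anchors, against 55.2% and 54.4% in those categories, and at 2 or more 53.3% and 40.6% had them. Unplaced bases lay within 50 kb of an anchor of 19.6% of the 541, against 2.36% of all loops. Without loops near unplaced bases, 1397 loops were strong without auxin, 1160 with auxin and 435 in both. Of the 44 structural loops strong in both, 30 had no unplaced bases nearby.

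For loops with a -auxin mid-G1 strength of at least 1.5, the residual was expressed as the excess over 1 in prometaphase relative to the excess over 1 in -auxin mid-G1. The 4276 structural loops retained a median of 5.14% (SD 1.32) without auxin and 1.03% (SD 1.67) with auxin. The 2486 dual-function loops retained 10.8% (SD 2.1) and 5.96% (SD 2.83). The 2719 CRE loops retained the most and differed the least, 15.0% (SD 2.68) and 13.7% (SD 2.98). Structural loops above a strength of 1 made up 64.3% (95% Wilson interval 62.8 to 65.7) without auxin and 53.2% (51.7 to 54.7) with auxin, and CRE loops 74.4% and 71.2%.

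The 2 prometaphase maps agreed less with each other, site by site, than the maps of any later stage. Spearman's rho between -auxin and +auxin strength was 0.493 over boundaries in prometaphase, against 0.843, 0.847 and 0.823 in ana/telophase, early G1 and mid-G1. Over structural loops it was 0.189 in prometaphase, against 0.536, 0.478 and 0.464, and it was 0.0459 in prometaphase when structural loops with a mean strength under 0.75 were left out. The rho over CRE loops was 0.424, against 0.749, 0.679 and 0.661. These values describe sites of the same 2 maps, which differ in depth from the later ones, and the part of depth was not tested. The share of structural loops weaker with auxin was 58.1% in prometaphase and 93.0%, 96.2% and 97.3% later, and for CRE loops it stayed between 49.2% and 52.5%.

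The strongest single loops in prometaphase were named for the structural, dual-function and CRE categories among loops with a -auxin mid-G1 strength of at least 2, so their high values in G1 are in part fixed by the choice. Other loops, not named here, were the most numerous at 2 or more in both maps, with 138 against 16 structural, 15 dual-function and 32 CRE loops. A structural loop on chromosome 5 between chr5:76440001-76450000 and chr5:76540001-76550000 had 7.11 without and 6.98 with auxin, and 9.63 and 7.93 in mid-G1. The CRE loop from chr19:6630001-6640000 to Rps6ka4, a protein kinase gene, had 7.71 and 8.57. At Cdkn2a, the locus of the cell-cycle inhibitors p16 and p19ARF, a CRE loop had 6.32 and 8.84. Unplaced bases lay near an anchor of 14 of the 15 strongest loops named by category, up to 47.1% of the sequence around the anchors, and their part in these strengths was not tested. The exception was a structural loop within the type I interferon cluster, from Ifna2 to Ifna6 at chr4:88320001-88330000 and chr4:88470001-88480000. It had 3.95 without and 4.74 with auxin in prometaphase, and 4.46 and 3.92 in mid-G1, although the study called it a loop in -auxin maps only.

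The largest differences at single CTCF loops ran both ways. Within Lrba, a gene for a vesicle trafficking protein, the structural loop between chr3:86140001-86150000 and chr3:86560001-86570000 had 2.61 without and 0.589 with auxin (log2 -2.15) and 2.92 and 1.12 in mid-G1. The structural loop from Rell1 to Tbc1d1, which encodes a Rab GTPase-activating protein, had 1.97 and 0.454 (log2 -2.12) and 4.25 and 1.51 in mid-G1. The dual-function loop from Ruvbl1, an AAA+ ATPase gene, to Podxl2 had 1.96 and 0.484 in prometaphase and 2.97 and 1.92 in mid-G1. All 5 loops with the lowest prometaphase ratio were lower with auxin in mid-G1 too, as were 97.3% of structural and 79.9% of dual-function loops.

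At the other end, the dual-function loop from Asb7 to Lrrc28, between chr7:73800001-73810000 and chr7:74760001-74770000, had 0.306 without and 2.13 with auxin (log2 2.80), and 3.86 and 1.32 in mid-G1. A structural loop at Mast4, a kinase gene, had 0.360 and 1.93 (log2 2.42), and 2.48 and 1.76 in mid-G1. On chromosome 16 the structural loop between chr16:62940001-62950000 and chr16:64740001-64750000 had 0.323 and 1.69, and 5.69 and 1.43 in mid-G1. Of the 5 loops with the highest prometaphase ratio, 4 were lower with auxin in mid-G1, near the same background. Of these 5, 4 spanned 500 kb or more, where 20.8% of structural and 17.0% of dual-function loops spanned more than 500 kb. The spread of replicates at these single loops was not analysed here.

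**Figure D5:**
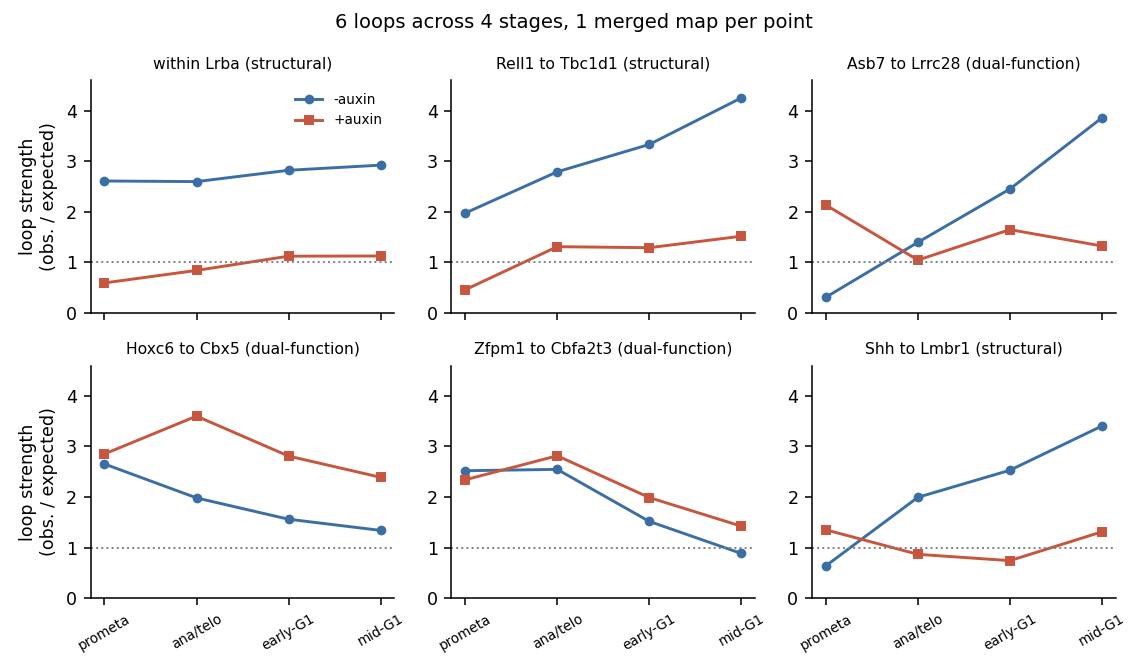
Strength (observed over expected) of 6 loops in the -auxin and +auxin maps from prometaphase to mid-G1. The loop within Lrba is at 2.61 without and 0.589 with auxin in prometaphase, and the Asb7 to Lrrc28 loop is at 0.306 and 2.13.

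Loops near 20 erythroid genes were examined as a group, among them the transcription factors, cofactors and receptors of red cell development, and 18 of the genes had a loop anchor within 10 kb. Their 78 loops (36 dual-function, 37 CRE, 3 structural, 2 others) had a median of 1.26 without and 1.19 with auxin, against 1.08 and 1.04 over all loops. The median log2 ratio was -0.04, as over all loops, with 42 of the 78 weaker with auxin, where 54.4% of all loops were. A ratio of -0.5 or less was seen at 7 and of 0.5 or more at 8, against 12.9% and 9.05% of all loops. Strength was 1.5 or more in both maps at 10 of the 78, against 3.3% of all loops. Several of these lay at Zfpm1, the gene of the GATA1 cofactor FOG1, and at Cbfa2t3, the gene of the corepressor ETO2, and shared anchors. The dual-function loop from an exon of Zfpm1 to an intron of Cbfa2t3 had 2.52 without and 2.34 with auxin in prometaphase, and 0.883 and 1.42 in mid-G1. The CRE loop from Pcbp1 to Gata2, the GATA factor of progenitors, had 1.88 and 1.52. A CRE loop at Tfrc, the transferrin receptor gene, had 1.87 and 1.21. Boundaries of this list lay at Myc (0.336 and 0.232), Gata2 (0.176 and 0.153), Ldb1 (0.123 and 0.116) and Myb (0.112 and 0.170).

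Loops at 10 loci known for insulation by CTCF formed the other list, and 5 of the loci had a loop. Their 8 loops (6 structural, 1 CRE, 1 others) had medians of 0.944 without and 1.16 with auxin in prometaphase, and 7 of the 8 were higher with auxin, 2 of them by 0.5 or more. Of all loops, 45.6% were higher with auxin and 9.05% by 0.5 or more. The 8 loops are not separate cases, because the 3 Igf2 loops overlapped at 1 anchor, as did the 2 Pax3 loops. At Igf2, the imprinted growth factor gene, the 3 loops had 0.540 and 1.33, 0.848 and 0.965, and 1.04 and 1.21. The loop from the Shh side to Lmbr1, between chr5:28790001-28800000 and chr5:29620001-29630000, had 0.639 without and 1.35 with auxin in prometaphase and 3.41 and 1.31 in mid-G1. Loops at the homeobox genes had 1.08 and 1.36 (Hoxa13) and 0.932 and 1.00 (the Hoxd cluster), and the Pax3 loops had 0.956 and 1.03 and 1.15 and 1.11. The list's only boundary, in an exon of Pax3, a developmental transcription factor gene, went the other way, with 0.0714 without and 0.0207 with auxin (log2 -1.79). In mid-G1, 7 of these 8 loops were lower with auxin, with a median ratio of -0.61, where 77.1% of all loops and 97.3% of structural loops were lower.

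Loops that the study first detected in prometaphase were few: 1 without auxin and 18 with auxin, and none in both treatments. The -auxin one, a loop of the others category between chr17:27380001-27390000 and chr17:27540001-27550000, had 3.21 without and 3.05 with auxin, so it was of similar strength in the map where it was not first detected. Their medians were 1.61 without and 1.85 with auxin, 14 of the 19 were higher with auxin, and 11 were at 1.5 or more in both maps. Since 18 of the 19 were chosen through detection in the +auxin map, the first of these counts follows from the choice. They included a loop from Cdk12 to Top2a, the gene of the topoisomerase of mitotic chromosomes, with 2.45 and 3.16, and a CRE loop within the Hist1 histone gene cluster with 1.67 and 1.61.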

How the data were processed

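In situ Hi-C maps were compared for prometaphase, with later stages as reference. The authors merged 2 replicates per prometaphase treatment, called boundaries and loops on mm9, and deposited 1 value per site and merged map: boundary strength, a signal (ΔIS, from insulation scores), and loop strength, a ratio of observed over locally expected contacts (a mean of the central pixel with the 8 around it). Boundary positions were set to minima of the -auxin mid-G1 insulation. The labels do not say that replicates came from separate cultures; the methods call them biological replicates. Cluster, category, size and first detection are the deposited columns. Members and gene lists were chosen with earlier results of these data known.

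Computed here were log2 ratios of +auxin over -auxin with no pseudocount (a value of 0 left 1 boundary and 2 loops without a ratio), medians, SDs of single-chromosome medians, Spearman correlations, shares with 95% Wilson intervals and residual percentages. Thresholds of ±1 (boundaries), ±0.5 (loops), 0.3 (residual boundaries) and 1.5 (strong loops) describe size and are not tests. CTCF core matches, gene starts and unplaced bases were counted in 30 kb windows and around sites from NCBIM37 (mm9) and its GENCODE annotation. Named boundaries were the 5 highest means in clusters 1 to 4 and the 5 lowest and 5 highest ratios at a mean of at least 0.1. Named loops were the 5 highest means each of structural, dual-function and CRE loops at a -auxin mid-G1 strength of at least 2, the 5 lowest and highest ratios among structural and dual-function loops at a mean of at least 1, and loops first detected in prometaphase. Medians, shares and motif search were tested on simulated data. Python 3.11.15, numpy 2.4.6, pandas 2.3.3, scipy 1.17.1 and matplotlib 3.10.9 were used.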

Additional observations from a re-analysis of the deposited data

Results flagged for a closer look

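The 8 loops, from 5 loci known for insulation by CTCF and in part with shared anchors, lay on opposite sides in prometaphase and mid-G1. Their median log2 ratio of +auxin over -auxin was 0.20 in prometaphase and -0.61 in mid-G1, and 6 of the 8 were higher with auxin in prometaphase and lower in mid-G1, as were 33.5% of all loops and 40.5% of structural loops. The mid-G1 side is that of most loops, since 77.1% of all and 97.3% of structural loops were lower with auxin there. The difference between the stages was not tested, because the tables used here hold 1 merged value per stage and treatment.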

How the results depend on the processing

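Of 240 alternative values for 44 results, 189 moved by less than the spread of chromosome medians or the Wilson interval, and 51 moved by more. The sign differed from that reported for 6 values, all of results whose own value was within the spread of chromosomes: CRE loops (0.0071 over 10 kb summits, 0.0021 as the ratio of means, 0.033 with the all-loop median subtracted), other loops (0.015 with that median subtracted), and structural loops above 1000 kb (0.016 over 10 kb summits and 0.017 with that median subtracted). No paired analysis was possible because the tables used here hold only merged values, so no replicate was left out either; maps of single replicates were not analysed here. With the all-loop median subtracted, the median ratios were -0.040 (structural), 0.033 (CRE) and 0.015 (others). The shares of strong loops are given without and with auxin for all, structural, dual-function, CRE and other loops in turn. At a threshold of 1.3 they were 20.9% and 18.1%, 16.9% and 11.0%, 23.8% and 19.4%, 23.5% and 23.9%, and 20.2% and 18.9%. At a threshold of 2 they were 1.91% and 2.1%, 0.868% and 0.558%, 1.22% and 1.28%, 1.57% and 1.81%, and 4.46% and 5.37%, so the shares of all, dual-function and other loops were then higher with auxin, unlike at 1.5. Over 10 kb summits they were 11.2% and 9.20%, 8.32% and 4.64%, 12% and 8.32%, 12.3% and 12.6%, and 13.3% and 12.2%. Without sites near unplaced bases, an alternative chosen after seeing the data, they were 8.74% and 7.26% for all and 9.26% and 8.76% for other loops. Against early G1, boundaries retained 23.2% and 21.9%, all loops 10.8% and 6.44%, and structural loops 6.82% without auxin. Spearman's rho between the maps was 0.363 over boundaries with a mean of at least 0.05, and over loops with a mean of at least 0.75 it was 0.241 (all), 0.0459 (structural), 0.282 (dual-function), 0.302 (CRE) and 0.323 (others). Pearson's r of log2 values was 0.478 (all), 0.511 (CRE) and 0.644 (others). The cause of these movements was not tested. With no replicate values and unknown depth per site, differences at single boundaries and loops have no measured error, and medians over many sites describe these 2 maps only.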

Other observations

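Some loops were stronger in both prometaphase maps than in the -auxin map of mid-G1, which was used to choose them. Among loops with no unplaced bases nearby, 106 had a strength of 1.5 or more in both prometaphase maps and exceeded their own -auxin mid-G1 strength in both: 40 CRE, 40 others, 22 dual-function and 4 structural. The 22 dual-function loops had medians of 1.80 without and 1.88 with auxin in prometaphase and of 1.24 and 1.85 in mid-G1, and 86.4% had gene starts at both anchors, against 55.2% of all dual-function loops and 73.6% of those strong in both maps. The 40 CRE loops had 1.75 and 1.81 in prometaphase, 1.39 and 1.73 in mid-G1, and gene starts at both anchors of 67.5%, against 54.4% of all CRE loops and 65.7% of those strong in both maps. In the +auxin maps, the medians over all 106 were 2.07 in prometaphase and 1.88 in mid-G1, and the 40 others had 2.73 and 2.48.

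The examples here were picked after their values were seen, and some were weaker in +auxin prometaphase than in +auxin mid-G1. The dual-function loop from Hoxc6, a homeobox gene, to Cbx5 and Hnrnpa1, the genes of heterochromatin protein 1 alpha and an RNA-binding protein, had 2.65 without and 2.85 with auxin in prometaphase, and 1.34 and 2.39 in mid-G1. The CRE loop from Smc4, a condensin subunit gene, to Nmd3, a ribosome export factor gene, had 3.56 and 2.80 in prometaphase and 2.50 and 3.94 in mid-G1. The CRE loop from Bclaf1 to Myb, a progenitor transcription factor gene, had 2.71 and 2.73, and 2.46 and 1.89. The dual-function loop from the tumour suppressor gene Trp53 to Kdm6b, a histone demethylase gene, had 1.89 and 1.85, and 1.3 and 2.74.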
